A study of Mus musculus with 24 samples.

Results

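The genes described here are Ctcf and 9 genes of the cohesin complex and its regulators, 10 of the 24594 genes counted in mouse embryonic stem cells (mESCs) that lack 1 of 6 subunits of ISWI chromatin remodelers. They were listed by symbol (Ctcf, Rad21, Smc1a, Smc3, Stag1, Stag2, Wapl, Nipbl, Pds5a and Pds5b) and joined to the count table by gene ID, by a rule that uses no measured value, although the list was drawn up with earlier results of these data known. All 10 were among the 15682 genes with enough counts to be tested.

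CTCF is a zinc-finger protein that binds a long DNA motif and marks many borders of chromatin domains. Cohesin is a ring formed by SMC1A, SMC3 and the kleisin RAD21, to which STAG1 or STAG2 binds as alternative subunits. NIPBL loads cohesin and drives its movement along DNA, WAPL releases the ring, and PDS5A and PDS5B bind it and take part in release and in its pausing. Moving cohesin is held up at bound CTCF, which gives loops and domain borders, and the same ring holds sister chromatids together until mitosis. ISWI remodelers slide nucleosomes, and CTCF binding depends on one of their ATPases, SNF2H. The levels of the CTCF and cohesin mRNAs in each line are therefore a background against which effects on CTCF sites are read.

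RNA labelled as polyA was sequenced in 24 libraries of mESCs of 129S6/SvEvTac background grown with serum and leukemia inhibitory factor on gelatin. In batch A there were 2 wild-type (WT) libraries, 2 of Rsf1Δ (RSF complex) and 2 of WstfΔ (Baz1b, WICH), so these lines share their WT libraries. Batch B held 2 WT and 2 Tip5Δ libraries (Baz2a, NoRC), batch C 2 WT and 2 BptfΔ (NURF), batch D 3 WT and 3 labelled Cecr2Δ (CERF), and batch E 2 WT and 2 Acf1Δ (Baz1a, ACF and CHRAC). The deletions were made with CRISPR-Cas9, each line rests on 1 representative clone, and the study describes the libraries as independent replicates, so the p-values below measure the spread between cultures of 1 clone and not between clones.

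Total counts per library ranged from 13.4 to 36.7 M, and each of the 10 genes had between 1186 and 20578 counts in every library. The targeted mRNA was lower in Rsf1Δ, WstfΔ, Acf1Δ and BptfΔ, with log2 fold changes of -2.26, -2.40, -1.72 and -1.97. Baz2a in Tip5Δ was at -0.26 (edgeR adjusted p = 0.0533), and Cecr2 was at 0.37 in the libraries labelled Cecr2Δ, so mRNA level does not check those labels. Batch C differed from the others and from its polyA label in its RNA, with Rpph1, an RNA without a poly(A) tail, at 3298 CPM or more in its 4 libraries and at 3.39 CPM or less elsewhere. The 5 mESC markers (Pou5f1, Sox2, Nanog, Esrrb and Zfp42) summed to between 2406 and 3869 normalized CPM in every library, with differences between lines and WT given below, and the 3 trophectoderm markers to at most 3.32. In bulk RNA, fewer cells with a transcript and less transcript per cell cannot be told apart.

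Promoter sequences are shown for Ctcf, which was called changed in no line, and for Smc1a and Smc3, the pair of ring subunits with the largest decreases in Acf1Δ. They are RefSeq promoters of GRCm38.p6 (mm10), 250 bases before to 50 after the annotated start, read on the plus strand of chr8:105636288-105636587, chrX:152016178-152016477 and chr19:53600146-53600445. The capitals mark matches on either strand to the GC box, GGGCGG, and to a motif named after its letters, CCAAT. No 2 matches overlap here.
Ctcf: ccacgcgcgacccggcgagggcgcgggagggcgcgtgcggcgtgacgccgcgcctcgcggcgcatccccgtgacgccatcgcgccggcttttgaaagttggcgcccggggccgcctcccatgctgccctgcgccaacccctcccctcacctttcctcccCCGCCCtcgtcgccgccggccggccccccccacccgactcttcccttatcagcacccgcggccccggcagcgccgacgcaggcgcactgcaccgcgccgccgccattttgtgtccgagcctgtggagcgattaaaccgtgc
Smc1a: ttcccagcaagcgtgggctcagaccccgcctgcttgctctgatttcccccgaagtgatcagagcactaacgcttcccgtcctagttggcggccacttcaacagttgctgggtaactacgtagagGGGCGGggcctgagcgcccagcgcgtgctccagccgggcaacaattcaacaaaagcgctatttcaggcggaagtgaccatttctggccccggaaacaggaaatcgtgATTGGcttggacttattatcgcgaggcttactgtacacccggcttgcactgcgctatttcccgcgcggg
Smc3: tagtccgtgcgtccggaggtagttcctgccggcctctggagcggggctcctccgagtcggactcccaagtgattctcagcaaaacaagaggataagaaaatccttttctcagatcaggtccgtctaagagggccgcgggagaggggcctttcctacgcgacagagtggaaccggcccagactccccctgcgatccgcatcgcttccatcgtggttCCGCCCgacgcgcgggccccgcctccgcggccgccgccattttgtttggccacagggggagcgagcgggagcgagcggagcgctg
All 3 windows hold 1 GC box, and only that of Smc1a holds CCAAT. Promoters were listed for 7 of the 10 genes, without Rad21, Stag2 and Nipbl. GGGCGG was found in 7 of the 7 and in 35.9% of 27025 promoters of the same length, and CCAAT in 4 of the 7 and in 37.9%. TTTNGCGC, an E2F motif, was found in Pds5a alone and in 1.38% of all promoters. TATAAA was in none of the 7 and in 14.2% of all. The windows of Ctcf, Smc1a and Smc3 hold 47, 23 and 32 CpG dinucleotides, where the median promoter holds 7. These are matches of letters only, and no binding was measured.

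In WT cells Rad21, Wapl and Smc3 were the most abundant mRNAs of the group when counts are expressed per length. Over the 11 WT libraries, normalized CPM per kilobase of gene width (from the count table) were 116 ± 14.8 for Rad21 (SD, n = 11), 78.2 ± 13.7 for Wapl, 61.8 ± 6.32 for Smc3 and 52.6 ± 4.19 for Ctcf. Smc1a followed with 41.2 ± 4.83 and Pds5a with 20.4 ± 2.69. The lowest were Stag1 at 17.2 ± 1.91, Nipbl at 17.2 ± 1.09, Stag2 at 16.4 ± 2.43 and Pds5b at 11.1 ± 2.30. Neighbours in this order differed by more than the SD of their log2 ratio, except Stag1 and Nipbl (0.00048 ± 0.17) and Nipbl and Stag2 (0.078 ± 0.21). Rad21 was above Wapl in 9 of 11 WT libraries, the exceptions being the 2 of batch C. The table gives 10266 bases for Stag1 and 14852 for Pds5a, where GENCODE exons cover 11781 and 19335, and the other 8 widths are equal. With exon bases, Pds5a, at 15.7 ± 2.07, and Stag1, at 15.03 ± 1.66, fall below Nipbl and Stag2 in the order.

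**Figure D1:**
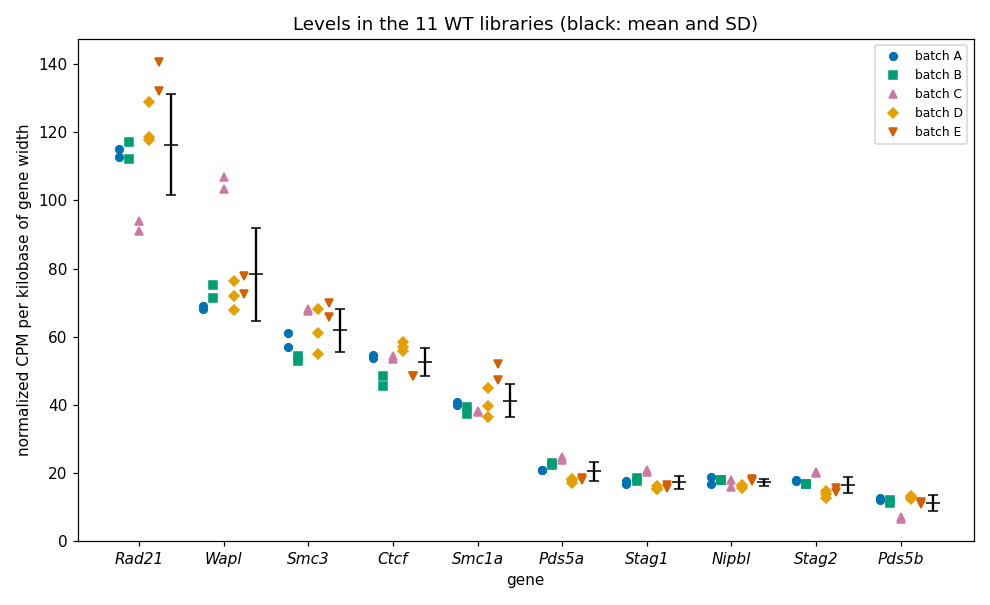
Normalized CPM per kilobase of gene width (vertical axis) of the 10 genes (horizontal axis, ordered by mean) in the 11 WT libraries, with 1 point a library, shapes and colours for the 5 batches, and the mean with its SD in black. Rad21 lies between 91.0 and 141 and Pds5b between 6.33 and 13.3, with batch C lowest for both and highest for Wapl.

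WT cultures themselves differed. Between the 5 WT batches, 9 of the 10 genes differed (edgeR quasi-likelihood F test, adjusted p under 0.01), where 74.2% of 13350 genes tested did. Nipbl was the exception (adjusted p = 0.148), with a highest batch mean 1.12-fold above the lowest. Pds5b ranged most, by 1.92-fold, from 62.3 and 69.5 normalized CPM in WT of batch C to 131, 127 and 121 in WT of batch D. Wapl ranged by 1.53-fold, with 685 and 708 in WT of batch C and between 449 and 515 in the other 9 WT libraries. Without batch C, 5 genes differed between WT batches (Ctcf, Rad21, Smc1a, Stag2 and Pds5a), where 58.3% of all genes did, and Wapl (adjusted p = 0.238) and Pds5b (0.0519) did not pass. Changes in the lines were therefore measured only against WT libraries of the same batch.

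Ctcf itself moved little. Ctcf (gene ID 13018, chr8:105636474-105682922) was called higher or lower in none of the 6 lines by edgeR at an adjusted p under 0.01, nor by DESeq2, and 2 of the 6 comparisons had an unadjusted p under 0.05, both higher. In batch A, Ctcf was at 265 and 262 normalized CPM in WT, at 286 and 275 in Rsf1Δ and at 249 and 256 in WstfΔ. Both lines lay outside their WT pair, one above and one below, with log2 fold changes of 0.091 (adjusted p = 0.229) and -0.062 (0.386). In batch B, it was at 235 and 221 in WT and at 253 and 249.9 in Tip5Δ, with log2 fold change 0.14, SE 0.0554, 95% interval 0.025 to 0.25, adjusted p = 0.0916, and it was called when only batch B was fitted (0.13, adjusted p = 0.00261). In batch D, it was at 272, 277 and 284 in WT and at 299.6, 303 and 301 in the libraries labelled Cecr2Δ, with log2 fold change 0.12, SE 0.0448, 95% interval 0.026 to 0.21, adjusted p = 0.0494. In both batches the libraries of the line lay above each WT library of their batch. Those labelled Cecr2Δ also lay above all 11 WT libraries of the series, of which the highest was at 284. In batch E, Ctcf was at 235 and 236 in WT and at 249 and 221 in Acf1Δ, which lie on either side of WT (log2 fold change -0.0027, adjusted p = 0.978). In batch C, it was at 259.8 and 264 in WT and at 280.2 and 273 in BptfΔ (log2 fold change 0.079, adjusted p = 0.245). Over the 6 lines, the 95% intervals of the Ctcf change ran from -0.18 to 0.25 on the log2 scale. Exons of Ctcf overlap those of Agrp by 114 bases and those of Gm5914 by 370 bases, both on the opposite strand, and whether counting used the strand is not given in the sources used here.

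**Figure D2:**
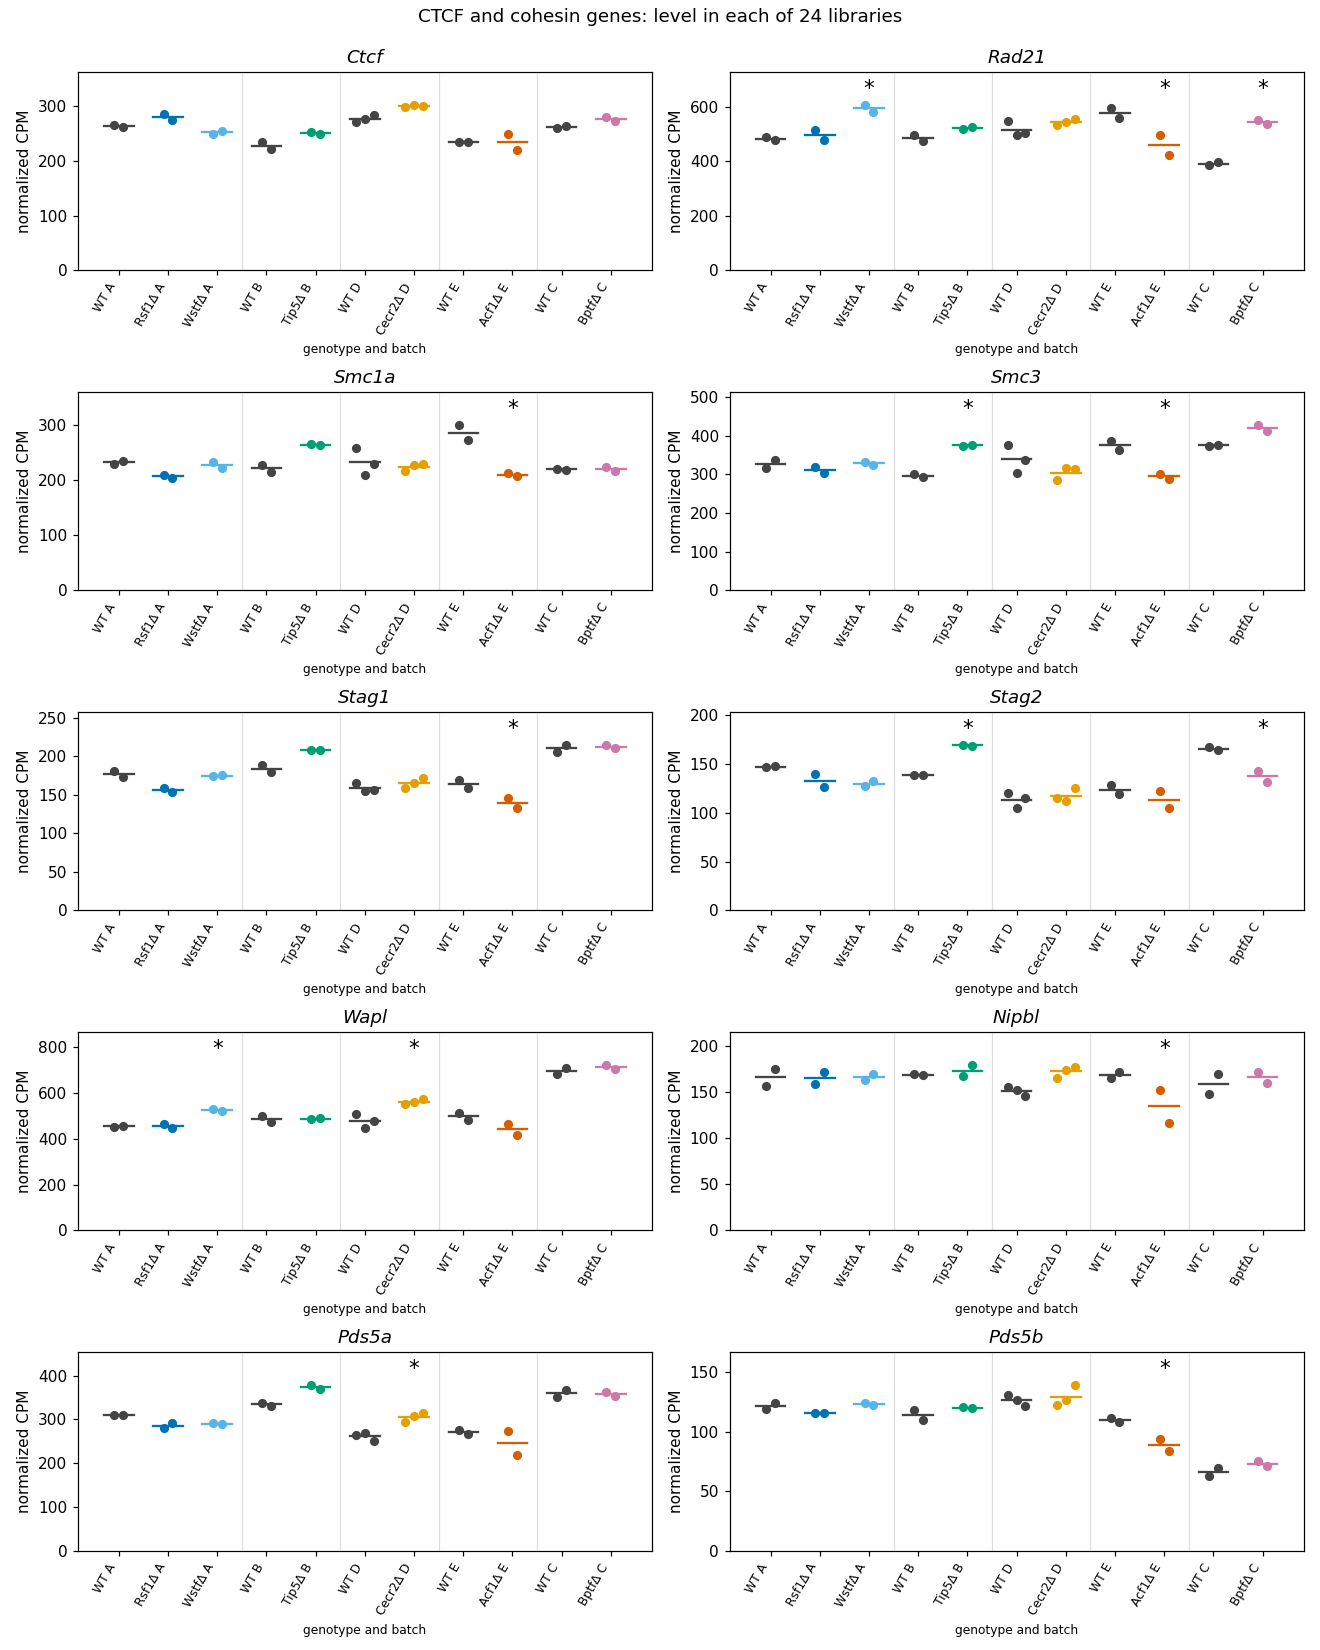
Normalized CPM (vertical axes, from 0) of the 10 genes in the 24 libraries, grouped by genotype and batch on the horizontal axes, with 1 point a library, a bar for the group mean, and a star over a line that was called higher or lower than the WT of its batch (adjusted p under 0.01). Ctcf carries no star, Rad21 carries 3 and each of the other 8 genes carries 1 or 2.

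Across the 60 comparisons of a gene in a line, 14 were called at an adjusted p under 0.01 (edgeR quasi-likelihood test, Benjamini-Hochberg over all genes), 7 higher and 7 lower. By line, from 2.84% (Tip5Δ) to 21.4% (BptfΔ) of all genes were called higher, and from 6.23% (Tip5Δ) to 20.2% (BptfΔ) lower. In the 5 lines other than BptfΔ, 12 of 50 were called, 6 higher and 6 lower. There the shares of all genes were at most 16.4% higher and 18.3% lower, both in WstfΔ. The log2 fold changes all lay between -0.45 and 0.47, so that 0 of the 60 passed the study's rule for a differentially expressed gene (DEG), an adjusted p under 0.01 and an absolute log2 fold change over 1, at any p and also with DESeq2. Of all genes, 5.91% were DEGs in Rsf1Δ, 10.4% in WstfΔ, 2.72% in Tip5Δ, 4.45% in Acf1Δ, 13.8% in BptfΔ and 3.11% in the libraries labelled Cecr2Δ. In 4 of the 14 called comparisons the mean of the line lay outside the range of all 11 WT libraries. These were Stag2 in Tip5Δ, and Smc1a, Stag1 and Nipbl in Acf1Δ. Means also lay outside that range without a call. They were those of Smc1a in Rsf1Δ, Pds5a in Tip5Δ and Acf1Δ, Wapl in Acf1Δ and BptfΔ, Smc3 in BptfΔ, and Ctcf in the libraries labelled Cecr2Δ. The share over all genes was not computed.

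By line, none of the 10 genes was called in Rsf1Δ, in edgeR or DESeq2, where 7.45% of all genes were called higher and 13.1% lower, and 2 had an unadjusted p under 0.05, both lower. In WstfΔ, 2 were called higher and 0 lower (16.4% and 18.3% of all genes), with 3 at an unadjusted p under 0.05. In Tip5Δ, 2 were higher and 0 lower (2.84% and 6.23%), and all 10 log2 fold changes were above 0 with a median of 0.15, against -0.0050 over all genes. Of the gene lists described below, condensin, SMC5/6 and proliferation also had Tip5Δ medians of 0.15. The median was 0.084 for the cohesin cycle, 0.075 for factors bound with or near CTCF and -0.72 for germline paralogues. In the libraries labelled Cecr2Δ, 2 were higher and 0 lower (9.52% and 8.83%). In Acf1Δ, 0 were higher and 6 lower (15.1% and 16.7%), and all 10 log2 fold changes were below 0 with a median of -0.27, against -0.026 over all genes. In BptfΔ, 1 was higher and 1 lower (21.4% and 20.2%). With 2 of 10 genes called, the share was near that of all genes in the libraries labelled Cecr2Δ, and below it in WstfΔ and BptfΔ.

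**Figure D3:**
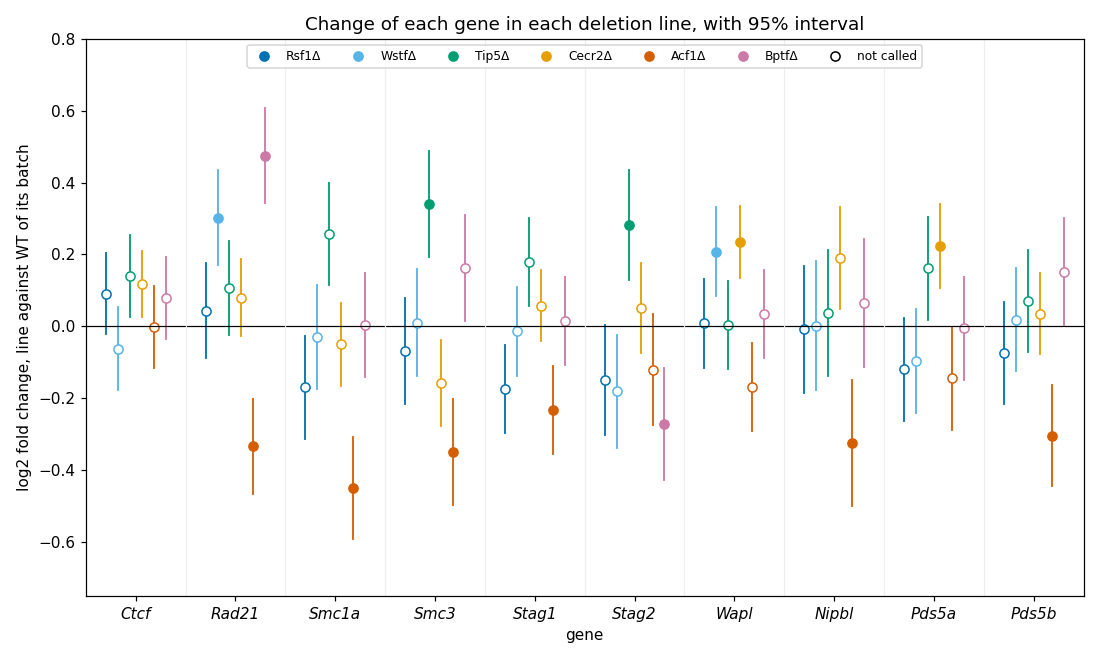
Log2 fold change of each gene (horizontal axis) in each of the 6 lines against the WT of its batch (vertical axis), with its 95% interval from the edgeR fit, filled where called at an adjusted p under 0.01. The 6 filled Acf1Δ points lie below 0, down to -0.45 for Smc1a, and the highest point is Rad21 in BptfΔ at 0.47.

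Among the ring subunits, Rad21 (gene ID 19357, chr15:51962604-51993538), the kleisin that is cut to open the ring at anaphase, was called in 3 lines. In batch A it was at 487 and 477 normalized CPM in WT and at 607 and 582 in WstfΔ, and at 515 and 479 in Rsf1Δ. The WstfΔ libraries lay above both WT libraries (log2 fold change 0.30, SE 0.0643, 95% interval 0.17 to 0.43, adjusted p = 0.000356), whereas Rsf1Δ overlapped WT (0.044, adjusted p = 0.66). In batch E it fell from 596 and 559.6 in WT to 495 and 422 in Acf1Δ, with no overlap (log2 fold change -0.33, SE 0.0640, 95% interval -0.47 to -0.20, adjusted p = 0.000142). With only batch E fitted, Rad21 was at -0.31 in Acf1Δ and not called (edgeR adjusted p = 0.0377). In batch C it was at 385 and 397 in WT and 550.2 and 537 in BptfΔ (log2 fold change 0.47, SE 0.0646, 95% interval 0.34 to 0.61, adjusted p = 6.73e-07), the largest change of the 60. WT of batch C had the lowest Rad21 of all WT libraries, and the BptfΔ level lay within the range of the other WT batches. Tip5Δ (519 and 526 against 496 and 475) and the libraries labelled Cecr2Δ (534, 545 and 555 against 546, 498 and 502) were not called.

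Smc1a (gene ID 24061, chrX:152016428-152061973), the X-linked ATPase subunit, was called in Acf1Δ alone. It fell from 300.0 and 273 normalized CPM in WT to 212 and 207 in Acf1Δ (log2 fold change -0.45, SE 0.0691, 95% interval -0.59 to -0.31, adjusted p = 9.17e-06). The Acf1Δ libraries lay close together, and WT of batch E had the highest Smc1a of the 5 WT batches. Over 552 tested genes of the X chromosome the median log2 fold change in Acf1Δ was -0.15. In Tip5Δ, Smc1a was at 266 and 263 against 227 and 215 in WT, without overlap, and missed the threshold (log2 fold change 0.26, SE 0.0692, 95% interval 0.11 to 0.40, adjusted p = 0.0107). In Rsf1Δ it was at 209 and 204 against 229.7 and 235, also without overlap (-0.17, adjusted p = 0.0674). WstfΔ, BptfΔ and the libraries labelled Cecr2Δ overlapped WT, with log2 fold changes of -0.029, 0.0036 and -0.050.

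Smc3 (gene ID 13006, chr19:53600396-53645831), the partner of SMC1A whose acetylation locks cohesin on chromatids, was called in opposite directions in Tip5Δ and Acf1Δ. It was at 300.4 and 294 normalized CPM in WT of batch B and at 375 and 377 in Tip5Δ (log2 fold change 0.34, SE 0.0717, 95% interval 0.19 to 0.49, adjusted p = 0.00126). It fell from 388 and 364 in WT of batch E to 301 and 289 in Acf1Δ (log2 fold change -0.35, SE 0.0716, 95% interval -0.50 to -0.20, adjusted p = 3e-04). Neither pair overlapped its WT. The Tip5Δ call was lost without any 1 of the 4 libraries of batch B, and the Acf1Δ call with only batch E fitted (-0.33, edgeR adjusted p = 0.0276). The Tip5Δ level was close to WT of batches C and E, and the Acf1Δ level was near WT of batch B. In BptfΔ it was at 428 and 412 against 374 and 377, without overlap and without a call (0.16, adjusted p = 0.0613). Libraries labelled Cecr2Δ had 285, 316 and 314 against 377, 304 and 338 in WT, with overlap (-0.16, adjusted p = 0.0447).

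The alternative subunits STAG1 and STAG2 place cohesin at partly different sites. Stag1 (gene ID 20842, chr9:100597709-100958544) fell in Acf1Δ, from 169 and 159 normalized CPM in WT to 147 and 133 (log2 fold change -0.23, SE 0.0595, 95% interval -0.35 to -0.11, adjusted p = 0.00253). The Acf1Δ libraries were the lowest of all 24 for this gene. With the offset for gene width described below the change was -0.049 (edgeR adjusted p = 0.528). With only batch E fitted the call was also lost, with the change at -0.21 (edgeR adjusted p = 0.173). Stag1 was at 159 and 154 in Rsf1Δ against 181 and 173 in WT (-0.17, adjusted p = 0.0269). In Tip5Δ it was at 208 and 208 against 188 and 179 (0.18, 0.0381). Neither overlapped WT and neither was called. Stag2 (gene ID 20843, chrX:42149297-42277186), X-linked like Smc1a, was called higher in Tip5Δ, at 169 and 169 against 139 and 139 (log2 fold change 0.28, SE 0.0745, 95% interval 0.13 to 0.44, adjusted p = 0.00922). It was called lower in BptfΔ, at 143 and 132 against 167 and 165 (log2 fold change -0.27, SE 0.0760, 95% interval -0.43 to -0.11, adjusted p = 0.00392). No library overlapped its WT in either. The Tip5Δ call was lost with library size only (0.24, edgeR adjusted p = 0.019) and without any 1 of the 4 libraries of batch B. The BptfΔ call was lost without either WT library of batch C or without BptfΔ replicate 2, and the change was 0.019 without batch in the model. The median of the 552 X-linked genes was -0.22 in BptfΔ and -0.016 in Tip5Δ, and the part of X-linked change in the Stag2 decrease was not tested. In WstfΔ, where that median was -0.24, Stag2 was at 128 and 132 against 147 and 148, below WT without a call (-0.18, adjusted p = 0.0548).

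Of the loader and the release factors, Nipbl (gene ID 71175, chr15:8289824-8465315) was called only in Acf1Δ, at 152 and 117 normalized CPM against 165 and 172 in WT (log2 fold change -0.32, SE 0.0856, 95% interval -0.50 to -0.15, adjusted p = 0.00324). Both libraries lay below WT, the second much further than the first, and without the second it was at -0.15 (edgeR adjusted p = 0.172). Its highest log2 fold change was 0.19 in the libraries labelled Cecr2Δ (166, 175 and 178 against 156, 153 and 146, adjusted p = 0.0396), and in the other 4 lines it overlapped WT.

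Wapl (gene ID 218914, chr14:34672379-34747983) was called higher in WstfΔ and in the libraries labelled Cecr2Δ, without overlap in either. In batch A it was at 451 and 457 normalized CPM in WT, at 528 and 521 in WstfΔ and at 464 and 449 in Rsf1Δ (log2 fold change 0.21, SE 0.0600, 95% interval 0.084 to 0.33, adjusted p = 0.00594 for WstfΔ). The WstfΔ call was lost in 8 of 24 omissions of 1 library, with each of the 4 WstfΔ and WT libraries of batch A among them, and with the replicate number as a block (adjusted p = 0.0102). In batch D it was at 506, 449 and 477 in WT and at 551, 560.3 and 574 in the libraries labelled Cecr2Δ (log2 fold change 0.23, SE 0.0486, 95% interval 0.13 to 0.33, adjusted p = 0.000551). Both lines stayed far below the 685 and 708 of WT in batch C. In Acf1Δ, Wapl was at 467 and 419 against 515 and 481 (-0.17, adjusted p = 0.0233). In Tip5Δ and BptfΔ it overlapped WT, with log2 fold changes of 0.0048 and 0.034.

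Pds5a (gene ID 71521, chr5:65605719-65698236) was called only in the libraries labelled Cecr2Δ, at 293, 308 and 315 normalized CPM against 265, 268 and 251 in WT (log2 fold change 0.22, SE 0.0567, 95% interval 0.11 to 0.34, adjusted p = 0.00369). All 3 lay above WT. With the offset for gene width the change was 0.15 (edgeR adjusted p = 0.0102) and not called, and the call was also lost without WT replicate 3 or without replicate 2 or 3 of the line. Pds5a is the widest of the 10 genes, and the median change of all genes in these libraries went from -0.058 for genes up to 1000 bases to 0.059 for those over 10000. In Acf1Δ its libraries were at 274 and 218 against 276 and 267 in WT, the first between the WT libraries and the second below them (-0.14, adjusted p = 0.098). Pds5b (gene ID 100710, chr5:150673713-150810669) was called only in Acf1Δ, where it fell to 93.6 and 83.9 from 111 and 108 in WT without overlap (log2 fold change -0.30, SE 0.0687, 95% interval -0.45 to -0.16, adjusted p = 0.000802). In BptfΔ it was at 75.3 and 71.0 against 62.3 and 69.5 (0.15, adjusted p = 0.0861). In the other 4 lines its log2 fold change lay between -0.074 and 0.071.

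Acf1Δ thus held 6 of the 7 decreases, in Rad21, Smc1a, Smc3, Stag1, Nipbl and Pds5b. Rad21, with a width of 4232 bases, is near the median gene tested (4025), whereas Nipbl, Stag1 and Pds5b, with 9423, 10266 and 9839 bases, are at or above the 91.1 percentile of width. In Acf1Δ the median log2 fold change of all genes went down with gene width, from 0.16 for genes up to 1000 bases to -0.22 for genes over 10000 bases, and the share called lower went up from 8.15% to 31.4%. It was seen mainly in replicate 2, where the log2 difference of wide from narrow genes, relative to WT, was -0.65, compared with -0.091 in replicate 1 and values between -0.18 and 0.17 in the other libraries. The 10 genes had a median log2 difference from the WT mean of -0.15 in replicate 1, with 8 of 10 below it, and of -0.35 in replicate 2, with 10 of 10 below it. With the trend on gene width removed by an offset, an alternative chosen after seeing the data, Rad21, Smc1a and Smc3 stayed called, where 15.7% of all genes were called lower, and the median of the 10 genes was -0.11. Stag1 was then not called, nor were Nipbl, at -0.17 (edgeR adjusted p = 0.0368), and Pds5b, at -0.13 (0.0785). Without Acf1Δ replicate 2, Stag1, Nipbl and Pds5b were not called, at -0.16, -0.15 and -0.23, nor were they without WT replicate 1 of batch E. With only the libraries of batch E fitted, only Smc1a was called, where 8.73% of all genes were called lower. That fit has the same WT libraries and takes filter, scaling and spread from batch E alone. The changes were then -0.31 for Rad21, -0.33 for Smc3, -0.21 for Stag1, -0.30 for Nipbl and -0.28 for Pds5b.

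**Figure D4:**
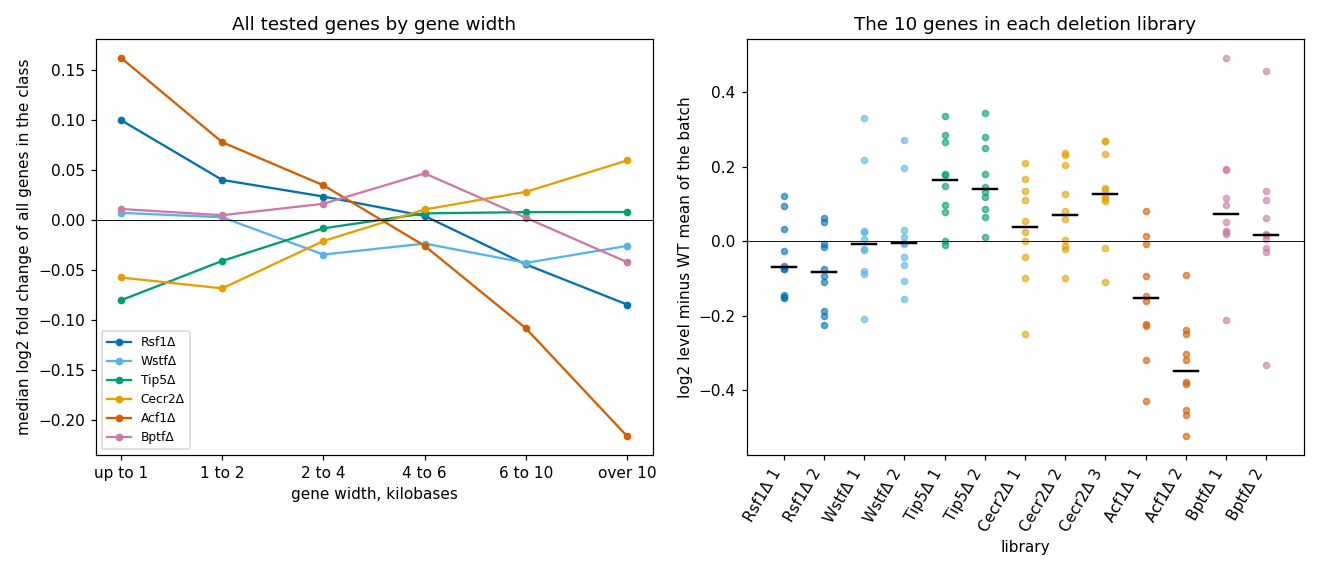
Left, median log2 fold change of all tested genes (vertical axis) in 6 classes of gene width in kilobases (horizontal axis) for the 6 lines. Right, log2 level minus the WT mean of the batch (vertical axis) of the 10 genes in each deletion library, with the median as a bar, which is lowest in Acf1Δ replicate 2 at -0.35 and highest in Tip5Δ replicate 1 at 0.16.

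Tip5Δ was the opposite case in direction. Its 2 libraries had medians of 0.16 and 0.14 above WT, with 8 and 10 of the 10 genes above the WT mean, and the medians of all genes by width class lay between -0.081 and 0.0078. Leaving out any of the 4 libraries of batch B left 0 genes called, whereas a fit with only those 4 libraries called 6, all higher, where 11.5% of all genes were called higher. Markers of primitive endoderm, which can arise in mESC cultures, also differed between lines and WT. Their sum over 4 of 4 genes (Gata4, Gata6, Sox17 and Pdgfra, none at 0 in any library) was 202 to 213 normalized CPM in WT of batch B and 39.0 to 44.2 in Tip5Δ. It was lower in the line in batch A (190.2 to 196 in WT, 73.0 to 78.7 in Rsf1Δ and 56.5 to 59.0 in WstfΔ), in batch D (58.3 to 67.5 and 11.3 to 14.5) and in batch C (88.8 to 95.1 and 7.16 to 8.08). In batch E it was 132 in WT and 173 to 201 in Acf1Δ, the only line above its WT. The summed mESC markers were above WT without overlap in 5 lines, with 2406 to 2485 normalized CPM in WT of batch A, 3239 to 3253 in Rsf1Δ and 3451 to 3493 in WstfΔ. They were at 2493 to 2563 in WT and 3637 to 3649 in BptfΔ, at 3225 to 3508 in WT and 3674 to 3869 in the libraries labelled Cecr2Δ, and at 2945 to 3129 in WT and 3511 to 3633 in Acf1Δ. In Tip5Δ (2877 to 2973) they overlapped WT of batch B (2918 to 2930). The part of either set of markers in the changes of the 10 genes was not tested.

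Whether lines differed was tested directly. The change against WT differed between the 6 lines for 9 of the 10 genes (F test, adjusted p under 0.01), where 65.3% of all genes did. The exception was Ctcf (adjusted p = 0.061), and the smallest adjusted p was that of Rad21 (2.59e-07). With the offset for gene width 5 genes passed (Rad21, Smc1a, Smc3, Stag2 and Wapl), where 66.9% of all genes did. All 15 pairs of lines were compared, and 40 of the 150 differences passed, where from 8.37% to 38.6% of all genes did, depending on the pair. By pair, from 0 of 10 genes differed (WstfΔ and BptfΔ, with 0 at an unadjusted p under 0.05, where 21.2% of all genes differed) to 7 of 10 (Acf1Δ and the libraries labelled Cecr2Δ, where 31.9% did). Of these 7, the Acf1Δ calls of Stag1, Nipbl and Pds5b and the Pds5a call in the libraries labelled Cecr2Δ were lost with the offset for gene width, and the median change of genes over 10000 bases was -0.22 in Acf1Δ and 0.059 in those libraries. Acf1Δ differed from BptfΔ for 5 genes (38.6% of all genes), from WstfΔ for 5 (34.9%) and from Rsf1Δ for 1 (14.8%). BptfΔ differed from the libraries labelled Cecr2Δ for 3 (34.2%), from Tip5Δ for 2 (30.4%) and from Rsf1Δ for 1 (30.7%). Tip5Δ differed from Rsf1Δ for 4 (11.7%), from WstfΔ for 1 (23.6%) and from the libraries labelled Cecr2Δ for 1 (8.37%), and these libraries differed from Rsf1Δ for 1 (16.1%) and from WstfΔ for 1 (23.4%). Tip5Δ and Acf1Δ, which share no libraries and had been seen to move in opposite directions, differed for 6 of 10 genes, where 24.4% of all genes did. Stag1 and Pds5b are among the 6, and their Acf1Δ calls were lost with the offset for gene width. The difference between the Tip5Δ and Acf1Δ log2 fold changes was 0.71 for Smc1a (SE 0.098, adjusted p = 3.21e-06) and 0.69 for Smc3 (SE 0.10, adjusted p = 7.82e-06). WstfΔ and Rsf1Δ, measured in 1 batch, differed for 2 of 10 genes, where 33.3% of all genes did. Rad21 was higher in WstfΔ than in Rsf1Δ by 0.26 (SE 0.064, adjusted p = 0.00179) and Wapl by 0.20 (SE 0.060, adjusted p = 0.00834).

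Ratios between partner genes use counts per kilobase within a library and do not depend on library scaling. In the 11 WT libraries the log2 ratio of Stag2 to Stag1 was -0.079 ± 0.092 (SD, n = 11) and above 0 in 3 libraries (p = 0.0195, exact permutation test that flips signs, two-sided). Its sign rests on the width used, since with GENCODE exon bases it was 0.12 and above 0 in 10 of 11 libraries (same exact test, p = 0.00195), so no order of these 2 genes is given. Pds5b was lower than Pds5a in each of 11 libraries, with a log2 ratio of -0.90 ± 0.50 (same exact test, p = 0.000977, the smallest that 11 libraries allow), and batch C stood apart at -1.86. With GENCODE exon bases the Pds5b to Pds5a ratio was -0.52, also below 0 in each library. Smc3 was higher than Smc1a in each of 11, at 0.59 ± 0.14 (same exact test, p = 0.000977). Libraries of a batch are not independent, and over the 5 batch means the exact p-values were 0.188, 0.0625 and 0.0625, where 0.0625 is the smallest possible. Differences of a ratio between groups do not depend on the widths. With the widths in the table, the Stag2 to Stag1 ratio was -0.37 and -0.27 in BptfΔ against -0.071 and 0.0077 in its WT, the lowest of any group. In Tip5Δ, where both genes lay above WT, it was 0.011 and 0.015 against -0.13 and -0.053. In Acf1Δ, Smc3 and Smc1a were lower together, and their log2 ratio was 0.55 ± 0.015 against 0.45 ± 0.031 in WT (SD, n = 2 each). These differences between groups were not tested.

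**Figure D5:**
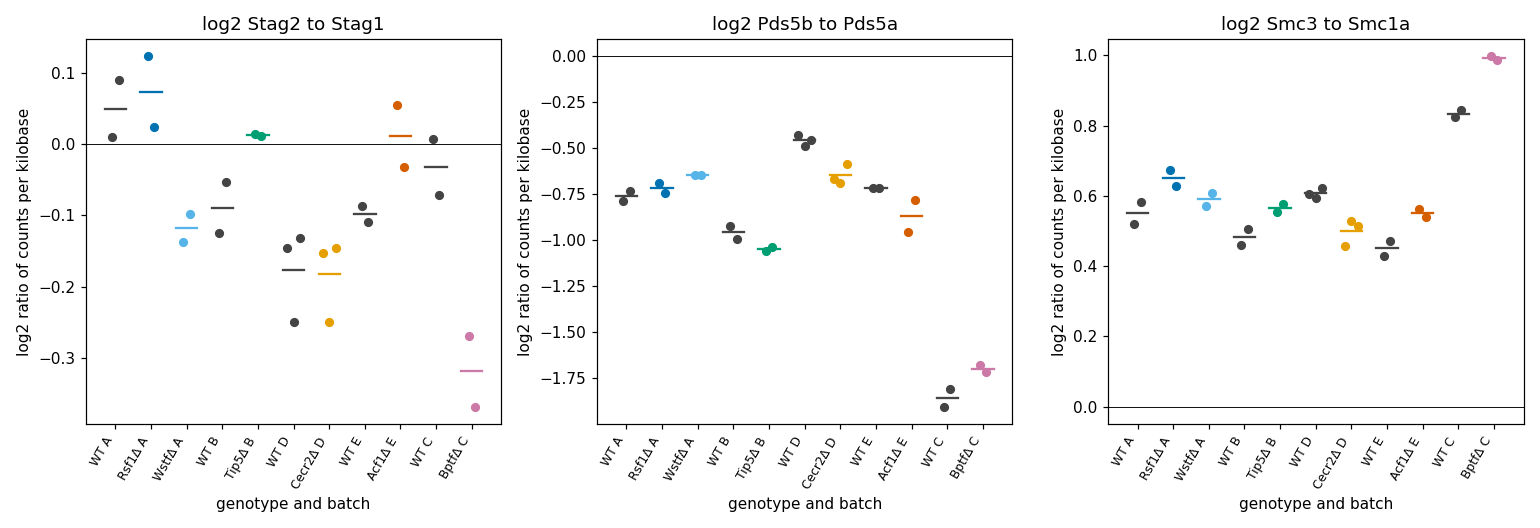
Log2 ratio of counts per kilobase (vertical axes) of Stag2 to Stag1, Pds5b to Pds5a and Smc3 to Smc1a in each library, by genotype and batch (horizontal axes), with bars for group means. Pds5b to Pds5a lies below 0 in all 24 libraries and lowest in batch C, Smc3 to Smc1a lies above 0 in all 24, and Stag2 to Stag1 lies lowest in BptfΔ.

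Other genes of the cohesin cycle form a list of 12 (the loader partner Mau2, the deacetylase Hdac8, the acetyltransferases Esco1 and Esco2, the establishment and clamp-loader genes Cdca5, Dscc1, Chtf8 and Chtf18, and Espl1, Pttg1, Sgo1 and Haspin, which act at mitosis). Across the lines the list had calls in both directions, with none for Hdac8 and Sgo1. In Acf1Δ, 4 of 12 were higher and 1 lower (15.1% and 16.7% of all genes), with a list median of -0.086. The part of the trend on gene width and of replicate 2, both described above, in these values was not tested. Cdca5, which encodes sororin, rose by 0.57 (edgeR adjusted p = 2.58e-08), Chtf8 by 0.53, Espl1, which encodes separase, by 0.33 and Mau2 by 0.29, whereas Esco2 was at -0.30. Rsf1Δ had 2 higher (Cdca5 at 0.25 and Espl1 at 0.33) and 0 lower (7.45% and 13.1% of all genes). WstfΔ had Espl1 higher at 0.33 and Chtf8 lower at -0.27 (16.4% and 18.3%). In Tip5Δ 0 of 12 were called by edgeR, 3 had an unadjusted p under 0.05, and the median was 0.084. Libraries labelled Cecr2Δ had Dscc1 (-0.37) and Chtf18 (-0.36) lower and 0 higher (8.83% and 9.52%). In BptfΔ, 2 were higher and 2 lower (21.4% and 20.2%), among the latter Pttg1, which encodes securin, the inhibitor of separase. Pttg1 was at 19.6 and 17.7 normalized CPM in WT of batch C and at 5.45 and 4.68 in BptfΔ (log2 fold change -1.88, adjusted p = 1.87e-11), the only DEG of this list.

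The paralogues that replace CTCF and cohesin subunits in germ cells (Ctcfl, Smc1b, Rec8, Rad21l and Stag3) included DEGs, unlike the 10 genes. Of the 5, 3 were DEGs in WstfΔ (10.4% of all genes), 1 in Tip5Δ (2.72%), 2 in Acf1Δ (4.45%), 2 in BptfΔ (13.8%), and 0 in Rsf1Δ (5.91%) and the libraries labelled Cecr2Δ (3.11%), where 2 each had an unadjusted p under 0.05. Smc1b, the meiotic form of Smc1a, was at 18.4 and 17.9 normalized CPM in WT of batch B and at 7.44 and 8.11 in Tip5Δ (log2 fold change -1.22). It was at 18.4 and 14.1 in WT of batch E and at 7.31 and 5.89 in Acf1Δ (-1.30), and at 13.3 and 14.1 in WT of batch C and 1.80 and 1.62 in BptfΔ (-3.00). All 3 are DEGs without overlap. In the libraries labelled Cecr2Δ it was higher (0.55, adjusted p = 0.00112), and in WstfΔ it was lower without being a DEG (-0.65, adjusted p = 0.00457). Stag3, the meiotic form of Stag1 and Stag2, was at 72.4 and 78.4 in WT of batch A and at 21.2 and 22.7 in WstfΔ (-1.78, adjusted p = 1.55e-13), and was also lower in Tip5Δ (-0.85, adjusted p = 1.34e-07) and the libraries labelled Cecr2Δ (-0.26, adjusted p = 0.00845). Rec8, the meiotic kleisin, was higher in Rsf1Δ (0.51), WstfΔ (0.49) and BptfΔ (0.58). Ctcfl, also called BORIS, had few counts, with 22 and 21 in WT of batch C and 1 and 1 in BptfΔ, 29 and 36 in WT of batch E and 10 and 7 in Acf1Δ, and 23 and 28 in WT of batch A and 6 and 2 in WstfΔ. It met the DEG rule in these 3 lines, as did Rad21l in WstfΔ, with 0 counts in both libraries against 7 and 10 in WT.

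The genes whose 6 log2 fold changes were most like those of Ctcf, by the root mean square difference over the 6 lines among 9404 other genes, were Papola (0.035), Atp5c1 (0.037) and Dkc1 (0.037). For Rad21 they were Phactr4 (0.052), Chmp1b (0.061) and Xiap (0.063). The comparisons for Rsf1Δ and WstfΔ in this measure share their WT libraries. For Ctcf, the distances were below the standard errors of its own changes, 0.0448 to 0.0559, and none of these changes was called. Likeness beyond that error was not tested.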

How the data were processed

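RNA-seq of 24 mESC libraries was analysed from raw counts per gene that the authors deposited as 1 table of 24594 genes without normalization. According to the study's methods, the authors aligned reads to mm10 with QuasR in spliced mode and HISAT2, and the submitters' processing notes list bcl2fastq 2.17. How multi-mapping reads, overlapping genes or strand were counted is not given in the sources used here. The labels name a stranded mRNA kit and the methods another TruSeq kit. The table also gives gene widths, used here per kilobase. Group and batch came from the sample labels, and gene symbols and coordinates from RefSeq for GRCm38.p6.

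In R 4.3.3, edgeR 4.0.16 filtered genes with filterByExpr by genotype (15682 genes left), scaled libraries with TMM factors and fitted the quasi-likelihood model (legacy form) with batch and genotype over all 24 libraries. A gene was called at a Benjamini-Hochberg adjusted p under 0.01 over all genes tested. A DEG also had an absolute log2 fold change over 1. Each standard error was taken from the size of the change and its F statistic. WT batches were compared in a fit of the 11 WT libraries (13350 genes). Normalized CPM are CPM computed with the TMM-scaled library sizes. Depth was 13.4 to 36.7 M counts per library, and intervals cover the spread between libraries. The steps were tested on simulated data.

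Genes were named by rule: the 10 listed genes, the 6 targeted genes, Rpph1, genes of 6 context lists (cohesin cycle, germline paralogues, condensin, SMC5/6, factors bound with or near CTCF, and proliferation), of which the DEGs were to be described, and the 3 genes most like Ctcf and Rad21 (mean of at least 10 CPM). Called genes of these lists that are no DEG were named after their values were seen. The 10 genes and all lists were chosen with earlier results of these data known. Alternatives were a newer edgeR fit, DESeq2 1.42.0, other scaling, no filter, other models and leaving out each library. An offset for gene width (lowess), TMM factors from protein-coding genes, leaving out batch C and GENCODE exon bases as gene width were chosen after seeing the data. Only RNA-seq counts were analysed.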

Additional observations from a re-analysis of the deposited data

How the results depend on the processing

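The number of the 10 genes called was unchanged within 1.5-fold with the newer edgeR fit, DESeq2, RLE factors, no filter on low counts and TMM factors from protein-coding genes. With library size only, Tip5Δ had 1 call. With only the WT libraries of the batch, Tip5Δ had 6 (Ctcf among them, 0.13, adjusted p = 0.00261) and Acf1Δ 1. Without batch in the model, WstfΔ, Tip5Δ, the libraries labelled Cecr2Δ and Acf1Δ had 0, BptfΔ had 1, and 2 genes differed between lines, which compares lines with WT libraries of other batches. With the offset for gene width, Acf1Δ had 3, the libraries labelled Cecr2Δ 1, and 5 genes differed between lines. Without batch C, 5 genes differed between WT batches. With the replicate number as a block, WstfΔ had 1 and 7 genes differed between lines, and no other count changed. Same-numbered libraries did not deviate together (r between -0.067 and 0.045 over 9 distinct values, since 2 groups of 2 libraries give 1 value for both numbers), so they are treated as sharing only a number. The ratios over 5 batch means were -0.069 for Stag2 to Stag1, -0.95 for Pds5b to Pds5a and 0.58 for Smc3 to Smc1a. With GENCODE exon bases as gene width, a choice made after seeing the data, the Stag2 to Stag1 ratio turned to 0.12, since Stag1 is then wider.

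The log2 fold change of Ctcf in Acf1Δ, -0.0027, changed sign with no filter (0.018), only batch E fitted (0.018), the width offset (0.0047), protein-coding TMM factors (0.015) and without batch C (0.018), and lay between -0.091 and 0.083 when single libraries were left out. Without batch in the model, Ctcf in Tip5Δ was at -0.023 and Stag2 in BptfΔ at 0.019. Leaving out each library in turn gave 0 to 0 calls in Rsf1Δ, 1 to 2 in WstfΔ, 0 to 3 in Tip5Δ, 1 to 3 in the libraries labelled Cecr2Δ, 3 to 8 in Acf1Δ (8 without replicate 1) and 1 to 2 in BptfΔ, 7 to 10 genes that differed between lines and 8 to 9 between WT batches. The ratios then lay between -0.096 and -0.062, -0.95 and -0.80, and 0.56 and 0.60. The Wapl call in WstfΔ was lost in 8 of 24 omissions, with each of the 4 WstfΔ and WT libraries of batch A among them, the Stag2 call in Tip5Δ in 13 of 24, the Smc3 call in Tip5Δ without each of the 4 libraries of batch B, in BptfΔ the Stag2 call without either WT library or without BptfΔ replicate 2, and in the libraries labelled Cecr2Δ the Pds5a call without WT replicate 3 or replicates 2 or 3 of the line. The cause was not tested. Groups of 2 or 3 libraries, 1 clone a line and unknown handling of strand limit these values, beside depth.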

Other observations

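Condensin, the SMC complex that compacts mitotic chromosomes, had called genes in 5 of the 6 lines. Of 8 genes, 4 were called higher and 0 lower in WstfΔ (edgeR adjusted p under 0.01, where 16.4% and 18.3% of all genes were), and 4 higher and 0 lower in BptfΔ (21.4% and 20.2%), with list medians of 0.11 and 0.23 on the log2 scale. Ncapd2, Ncapg, Ncaph and Ncaph2 were the genes called in each of these lines, with Ncapd2 at 0.47 in WstfΔ and Ncaph at 0.49 in BptfΔ. In Tip5Δ, Smc4 (0.31) and Ncapd2 (0.26) were higher (2.84% of all genes), and in Rsf1Δ Ncapd2 was (0.21, 7.45% of all genes). In Acf1Δ, Smc2 (-0.37) and Smc4 (-0.30) were lower (16.7% of all genes). In the libraries labelled Cecr2Δ 0 of 8 were called and 0 had an unadjusted p under 0.05. The shares of all genes above hold for the other lists too. Of 6 genes of the SMC5/6 complex, which acts in DNA repair, 4 were higher in BptfΔ, led by Nsmce3 at 0.57, 1 was higher in WstfΔ (Nsmce4a, 0.30), and Smc5, Smc6 and Nsmce2 were lower in Acf1Δ, at -0.37, -0.43 and -0.37. None was called in Rsf1Δ, Tip5Δ or the libraries labelled Cecr2Δ, where 0, 2 and 2 had an unadjusted p under 0.05. The part of the trend on gene width in the Acf1Δ values was not tested.

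Among 9 factors bound with or near CTCF, Top2b, a topoisomerase, was higher in WstfΔ (0.33), BptfΔ (0.74) and the libraries labelled Cecr2Δ (0.24), and lower in Acf1Δ (-0.24). Acf1Δ had 3 higher (15.1% of all genes, here Maz, Patz1 and Ldb1, from 0.22 to 0.34) and 3 lower, with Vezf1 at -0.72 and Zfp143 at -0.53. Ldb1 was also higher in Rsf1Δ (0.25) and Patz1 and Ldb1 in the libraries labelled Cecr2Δ (0.21 and 0.23, where 9.52% of all genes were higher). Vezf1 was higher (0.41) and Adnp lower in BptfΔ (-0.32). In Tip5Δ 0 of 9 were called and 2 had an unadjusted p under 0.05. Of 12 proliferation genes, 6 were higher and 1 lower in Acf1Δ with a median of 0.22. In this line the median of all genes went from 0.16 for narrow to -0.22 for wide genes, with replicate 2 apart from the other libraries, and the part of this in the counts of these lists was not tested. In the other lines 3 and 0 (Rsf1Δ), 5 and 1 (WstfΔ), 3 and 0 (Tip5Δ), 2 and 1 (BptfΔ) and 1 and 1 (libraries labelled Cecr2Δ) were higher and lower. The 3 markers of primed cells or early mesoderm summed to at most 3.79 normalized CPM in any library, and the 3 fibroblast markers to between 2.54 and 28.5.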
